A study of Mus musculus with 16 samples.

Results

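The 37 genes described here are interferon-stimulated genes, a set whose transcription rises when a cell receives an interferon signal. They were taken by symbol, each symbol being matched through its Ensembl identifier to 1 row of the 89407 rows of the count table, and all 37 were found. RNA was sequenced from medullary thymic epithelial cells (mTEC) of 8 mice, and each mouse gave 1 mature and 1 immature library, 16 libraries in all. Mature mTEC were sorted as CD45- EpCAM+ Ly51- UEA+ MHCII high cells and immature mTEC as the MHCII low cells of the same gate. The labels give a sort of 10000 cells, an age of 4 to 6 weeks and a C57BL/6 strain, whereas the study's methods describe mice of a 129S2/Sv and C57BL/6J mix.

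In the Rbfox1 line, all mice carried Rbfox1 lox/lox alleles, and in the Rbfox2 line all carried Rbfox2 lox/lox alleles. The thymus knockouts (tKO) were Foxn1 wildtype/cre, so that Cre was expressed from the Foxn1 locus, which is active in thymic epithelium, and the controls were Foxn1 wildtype/wildtype without Cre. Each line held 2 tKO and 2 control mice, 1 female and 1 male of each genotype. Below, values are always listed for replicates 2 and 3 of the Rbfox1 line and replicates 1 and 2 of the Rbfox2 line.

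Interferons of type I and type III signal through the kinases JAK1 and TYK2 to a complex of transcription factors that includes STAT2 and IRF9 and binds a promoter element called the interferon-stimulated response element (ISRE). Interferon gamma acts mainly through another element, the gamma-activated site (GAS). The genes so induced encode antiviral proteins, sensors of viral nucleic acid and regulators of the response itself, and thymic epithelium is known to make interferons in the absence of infection.

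Promoters of 26 members were present in the RefSeq table used here (GRCm38.p6, 250 bases before to 50 bases after a start site), and 14 of these 26 (53.9%) held the ISRE letters, TTTC followed by any 2 bases and TTTC again, or the same motif read on the other strand, GAAA, any 2 bases and GAAA. Of all 27025 genes in that table, 3.99% held them. The GAS letters TTCNNNGAA, which read the same on both strands, were present in 6 of the 26 members (23.1%) and in 9.55% of all genes. A gene with several start sites was counted once if any of them matched, and overlaps between matches were allowed. The following 30-base stretches, with the ISRE letters in capitals, are shown because the same letters occurred in members that were far lower in mature mTEC (Ifit3, Isg15, Gbp3, Irgm1) and in members that were not (Rsad2, Igtp).
Ifit3, chr19:34583397-34583426, plus strand: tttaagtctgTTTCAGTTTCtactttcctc
Isg15, chr4:156200871-156200900, minus strand: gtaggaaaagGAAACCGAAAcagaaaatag
Gbp3, chr3:142559989-142560018, plus strand: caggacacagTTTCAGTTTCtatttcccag
Irgm1, chr11:48871425-48871454, minus strand: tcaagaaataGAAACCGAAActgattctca
Rsad2, chr12:26456553-26456582, minus strand: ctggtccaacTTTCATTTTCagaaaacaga
Igtp, chr11:58199512-58199541, plus strand: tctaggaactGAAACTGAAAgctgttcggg

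The centres of these matches lay 117, 67, 40, 19, 115 and 29 bases before the start site in that order. The Isg15, Ifit3, Gbp3 and Irgm1 promoters held more than 1 match, overlapping in all but Ifit3, and 1 of each is shown. A match is a description of letters and was not tested for binding.

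Library totals were 3737884 to 4636367 counts in mature and 1506134 to 2430287 counts in immature mTEC. Rbfox2, the targeted gene of its line, was at 9.56 and 16.2 CPM (counts scaled to 1000000 a library) in the 2 Rbfox2 tKO mature libraries against 58.1 and 57.1 in their controls, and at 37.8 and 23.6 against 106 and 94.5 in immature mTEC. Rbfox1 was at 34.1 and 29.85 CPM in Rbfox1 tKO mature libraries against 52.6 and 48.6 in controls, but at 152 and 153.5 against 164 and 160.4 in immature mTEC. Counts were summed over the whole gene and could include reads from exons that Cre leaves in place, so the immature Rbfox1 values do not check the labels. Foxn1, whose locus carries the Cre, was at 364 to 437 CPM in the 4 tKO mature libraries and at 251 to 265 in the 4 controls. The epithelial markers Epcam, Krt8 and Krt5 were present in every library (at least 437 CPM). Ccl21a, a marker of one immature mTEC type, was at 0 in all mature libraries and at most 2.72 CPM in immature ones. The handling of reads shared by loci is not stated, so these Ccl21a values do not show that this type was absent.

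The levels of the members were set side by side as CPM per kilobase of exon. In immature mTEC, averaged over 8 libraries, Isg15 (326), which encodes a ubiquitin-like protein that is conjugated to other proteins, and Bst2 (299.6), the tetherin that holds budding virions at the cell surface, had the highest CPM per kilobase. Ifit3 (149.8), Irf7 (124.9) and Oasl2 (116.5) followed. In mature mTEC the order differed. Usp18 (94.1), the protease that removes ISG15 and damps receptor signalling, stood first, followed by Bst2 (81.7), Isg15 (63.7), Ifi27 (61.9) and Ifi35 (60.1). Irf9, Rtp4 and Oas1a were the lowest members in both populations, at or under 3.71 CPM per kilobase, with as few as 1 count in a mature library. Rtp4 shares 13.9%, Irf9 2.3% and Oas1a 0% of its exon bases with annotated genes, and overlap with assembled loci was not checked. How reads shared by loci were handled is not stated, so these counts may not give the level of these genes. This limit holds for each of their values and calls below. The 37 members together held 0.210 to 0.288% of all counts in mature and 0.517 to 0.609% in immature libraries, and these ranges did not overlap.

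To ask how the interferon-stimulated genes change as mTEC mature, the 4 mature and 4 immature libraries from control mice were compared with edgeR's quasi-likelihood test. A gene was called changed where its fold change was over 2 and its p, adjusted after Benjamini and Hochberg, was under 0.05, and rose or fell is used for called genes. Of the 37 members, 21 fell and 0 rose. Lower calls were made for 11.1% of the 16750 genes tested and higher calls for 26.8%. On the adjusted p alone, 30 members were lower and 4 were higher, against 30.4% and 38.4% of all genes, and 3 did not pass. An unadjusted p under 0.05 was reached by 34 members, against 71.1% of all genes, and DESeq2 called 21 members lower and 1 higher. The median log2 fold change was -1.26 over the members and 0.05 over all genes. The 4 mature libraries were below all 4 immature ones for 28 members, against 24.2% of all genes, and above them for 2, Oasl1 and Rsad2, against 33.5% of all genes.

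**Figure D1:**
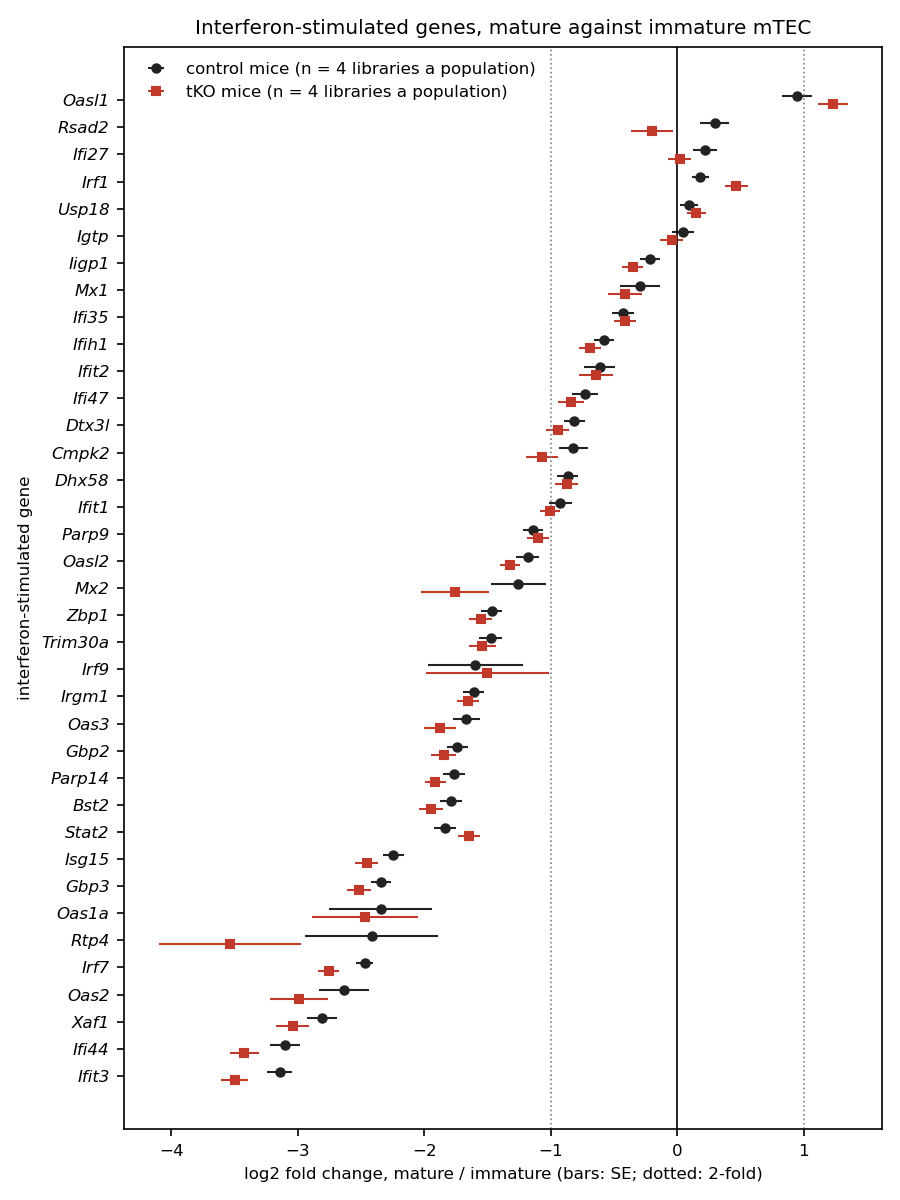
Log2 fold change of the 37 interferon-stimulated genes between mature and immature mTEC (horizontal axis, mature over immature), ordered by the value in control mice, with standard errors. Black circles are control mice and red squares tKO mice (4 libraries of each population), and the dotted lines mark a 2-fold change. Values in control mice run from -3.14 for Ifit3 to 0.95 for Oasl1.

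Among the transcription factors, Irf7, the factor that amplifies type I interferon transcription, was at 84.1, 82.7, 85.8 and 82.0 CPM in mature control libraries and at 433, 414, 506 and 508 CPM in immature ones. Every mature library thus lay far below every immature one. The log2 fold change was -2.47 (SE 0.07, edgeR adjusted p = 5.79e-16). Stat2 was at 42.0 to 73.2 CPM in mature and 160.7 to 212 CPM in immature libraries and fell by 1.84 on the log2 scale (SE 0.09). Irf9, which joins STAT2 in the complex that binds the ISRE, fell by 1.59 (SE 0.38), on at most 13.0 CPM in any library. Irf1, the early factor of the interferon gamma response, was at 201, 199, 177.5 and 171 CPM in mature and 166, 173.5, 155 and 163 CPM in immature control libraries. Its log2 fold change was 0.18 (SE 0.07, adjusted p = 0.022), within 2-fold, and it stayed under 0.05 in 7 of 10 other ways of processing.

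The largest fall was that of Ifit3, one of the Ifit proteins that bind viral RNA. It was at 27.0, 31.3, 36.4 and 30.4 CPM in mature and 205, 255, 363 and 298 CPM in immature control libraries, with no mature library near an immature one. The log2 fold change was -3.14 (SE 0.10, edgeR adjusted p = 5.33e-15). Ifit1 and Ifit2, which lie beside Ifit3 on chromosome 19, had log2 fold changes of only -0.92 (SE 0.09) and -0.61 (SE 0.12), lower on the adjusted p but within 2-fold. Ifi44 and Xaf1, a proapoptotic factor, came next to Ifit3. Ifi44 was at 24.0, 24.4, 30.1 and 18.04 CPM in mature and 206, 177, 249.9 and 199.8 CPM in immature libraries, a log2 fold change of -3.10 (SE 0.12). Xaf1 was at 11.9 to 15.0 CPM in mature and 87.0 to 103 CPM in immature libraries (log2 fold change -2.81, SE 0.12).

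In the ubiquitin-like system the pair of members moved apart. Isg15 was at 55.5, 50.1, 46.8 and 57.3 CPM in mature and 213.5, 218, 308 and 263 CPM in immature control libraries, a log2 fold change of -2.24 (SE 0.09). Usp18 was at 268.5, 241.5, 272 and 271 CPM in mature against 245, 274, 242 and 226 CPM in immature libraries, with a log2 fold change of 0.09 (SE 0.07, edgeR adjusted p = 0.23). The 2 sets of Usp18 values overlapped.

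All 3 sensors were lower on the adjusted p. Zbp1, which binds Z-form nucleic acid, fell (-1.47, SE 0.08), whereas Dhx58 (-0.86, SE 0.08) and Ifih1 (-0.57, SE 0.08), which encode the RNA sensors LGP2 and MDA5, were within 2-fold. In the Oas family, whose active members make the 2'-5' oligoadenylates that switch on RNase L, Oas2 (-2.64), Oas1a (-2.34), Oas3 (-1.67) and Oasl2 (-1.18) fell. Oasl1, which represses translation of Irf7 mRNA, went the other way. It was at 78.9, 63.9, 65.1 and 80.8 CPM in mature and 28.0, 36.1, 42.5 and 44.5 CPM in immature control libraries, without overlap. Its log2 fold change of 0.95 (SE 0.12, adjusted p = 1.05e-06) was just under 2-fold, and it passed 2-fold in 7 of 10 other ways of processing (up to 1.12).

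Bst2 was at 84.1, 65.2, 83.7 and 78.6 CPM in mature and 276, 232, 298 and 271 CPM in immature control libraries, and fell by 1.79 on the log2 scale (SE 0.09). Mx2 fell (-1.26, SE 0.22), Cmpk2 was lower within 2-fold (-0.82, SE 0.11) and Mx1, the dynamin-like antiviral GTPase, did not pass (-0.29, SE 0.16, edgeR adjusted p = 0.11). Rsad2, which encodes viperin and is a direct neighbour of Cmpk2 on chromosome 12, was at 40.9, 39.5, 42.8 and 43.2 CPM in mature and 31.9, 36.9, 31.6 and 34.9 CPM in immature libraries, a log2 fold change of 0.30 (SE 0.11, adjusted p = 0.026). Rsad2 was no longer under 0.05 in 4 of 10 other ways of processing, with an adjusted p of up to 0.15.

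Parp14, Trim30a and Parp9 fell, by 1.77, 1.47 and 1.14 on the log2 scale, and Dtx3l, the ubiquitin ligase partner of PARP9, was lower within 2-fold (-0.81). Parp9 and Dtx3l overlap head to head and share 458 exon bases, and whether counting used strand was not given in the sources used here, so their counts are not fully separate. Among the GTPases, which attack the membranes around intracellular pathogens, Gbp3 (-2.34, SE 0.08), Gbp2 (-1.74, SE 0.08) and Irgm1 (-1.61, SE 0.08) fell. Igtp, another GTPase of the Irgm1 class, was at 81.1, 83.7, 95.4 and 94.4 CPM in mature against 60.3, 78.8, 109 and 101 CPM in immature control libraries, and these values overlapped (log2 fold change 0.05, SE 0.09). Iigp1 (-0.22, adjusted p = 0.023) and Ifi47 (-0.73) were within 2-fold, and the adjusted p of Iigp1 was over 0.05 in 7 of 10 other ways of processing. Ifi35, with 16.8% of its exon bases shared with other genes, was lower within 2-fold (-0.42), Ifi27 was at 0.22 (adjusted p = 0.046) and Rtp4 fell (-2.42, SE 0.53) on at most 6.16 CPM.

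The 14 members with ISRE letters had a median log2 fold change of -1.70 and 10 of them fell. The 12 without had a median of -0.82 and 5 fell, and of the 11 whose promoters were not matched, 6 fell. The range within each class was wide, from -3.14 to 0.30 with the letters and from -3.10 to 0.95 without, and no test was made of the difference.

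In the 4 tKO mice 23 members fell and 1, Oasl1, rose (log2 fold change 1.23, SE 0.12, edgeR adjusted p = 3.92e-09), where 11.9% of 16578 genes were called lower and 26.3% higher. The median log2 fold change was -1.50. The members called in tKO mice included Cmpk2 (-1.07) and Ifit1 (-1.004), which were within 2-fold in control mice. The call for Ifit1 was lost in 7 of 10 other ways of processing, that for Cmpk2 in 3, and that for Irf9 (-1.4998, SE 0.49) in 2 of 9, without Rbfox1 tKO replicate 2 (-1.40) and without Rbfox2 tKO replicate 1 (-1.19). The difference in maturation between tKO and control mice was tested directly as an interaction over all 16 libraries, and 0 members passed by edgeR (against 0% of all genes, with 4 members at an unadjusted p under 0.05, 10.8% of 37, against 5.2% of all genes) or by DESeq2 (3 unadjusted). Irf7 had the smallest p (log2 difference -0.30, edgeR adjusted p = 0.87), followed by Irf1 (0.27, adjusted p = 0.92) and Rsad2 (-0.51, adjusted p = 0.92).

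A member score, the mean log2 CPM of the 37 genes with a prior count of 2, put all 8 mice in the same direction. In mature mTEC it was 5.51 and 5.45 in Rbfox1 control, 5.41 and 5.35 in Rbfox1 tKO, 5.37 and 5.34 in Rbfox2 control and 5.002 and 5.16 in Rbfox2 tKO mice. In immature mTEC it was 6.55 and 6.62, 6.70 and 6.56, 6.72 and 6.60, and 6.50 and 6.57 in the same order. Mature minus immature ran from -1.502 to -1.04 within each mouse, while the pooled standard deviation between mice of a group was 0.06 in mature and 0.07 in immature mTEC. The difference was -1.28 in control mice without the 6 GTPases and Irf1, which respond to interferon gamma, and -0.91 over those 7 genes alone.

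**Figure D2:**
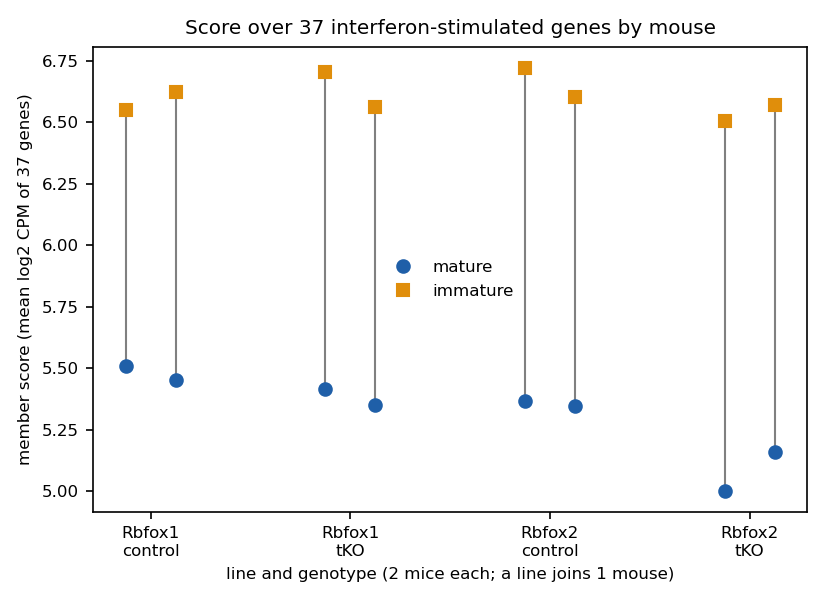
Score over the 37 interferon-stimulated genes (vertical axis, mean log2 CPM) for each of the 8 mice, grouped by line and genotype, with blue circles for mature and orange squares for immature mTEC and a line joining the libraries of 1 mouse. Mature values of 5.002 to 5.51 lie below all immature values of 6.50 to 6.72.

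The sorted populations also differed in genes used as markers of other cells, whose part in these results was not tested. The study describes mTEC as transcribing tissue-restricted genes themselves. Reads of these markers from mTEC and from other cells cannot be told apart in these bulk libraries. Summed over 5 macrophage markers (Adgre1, Csf1r, Mertk, Lyz2, Cd68), mature libraries were at 265 to 355 CPM and immature ones at 17.7 to 34.3 CPM, and 4 of the 5 markers did not overlap. The 4 B cell markers summed to 39.96 to 48.6 CPM in mature and 1.40 to 9.04 CPM in immature libraries, all 4 without overlap, and the 6 thymocyte markers to 45.6 to 58.3 against 3.44 to 23.4 CPM, 3 of them without overlap. Of 5 conventional dendritic cell markers 3 were higher in mature libraries without overlap (summed 45.4 to 60.4 against 35.9 to 54.8 CPM). The macrophage, B cell and thymocyte sums were thus higher without overlap in the population where the members were lower. The conventional dendritic cell sums overlapped. In immature libraries they were carried by Sirpa (62 to 95 counts, at most 2 for any other marker), whose CPM leaned toward immature mTEC. The fibroblast and endothelial lists moved with the members. Of the 4 fibroblast markers Col1a2, Dcn and Pdgfra fell in mature mTEC of control mice (log2 fold changes -1.32, -1.70 and -1.55) and of tKO mice (-1.56, -1.74 and -1.84), while Col1a1 was at 0.49 and 0.10. The 3 endothelial markers Cdh5, Kdr and Pecam1 also fell in control (-1.12, -1.96 and -1.22) and tKO mice (-1.71, -2.74 and -1.29). The fibroblast sums were 361 to 454 CPM in mature against 1171 to 1695 CPM in immature libraries of the Rbfox2 line, but 278 to 350.5 against 237 to 463 CPM in the Rbfox1 line, where they overlapped, and the endothelial sums were 21.7 to 30.3 against 19.4 to 184 CPM over all libraries. The plasmacytoid dendritic cell list was also higher in immature mTEC (149 to 168.5 CPM in mature, 429 to 595 in immature), but its sum was carried by Tcf4 and by Bst2, itself a member, while its defining marker Siglech was at most 1.28 CPM in any library. In bulk samples, fewer cells of a type and less RNA per cell cannot be told apart. The mature and immature libraries were also down-sampled to different depths by the authors.

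The other genes of the interferon pathway formed a list of 57, of which 35 could be tested in control mice. There 8 rose and 8 fell, against 26.8% and 11.1% of all genes, and a further 5 were higher and 7 lower on the adjusted p alone. The interferon genes themselves were seen almost only in mature mTEC. The interferon lambda genes Ifnl2 and Ifnl3, which encode type III interferons, held 16, 25, 16 and 24 counts and 26, 24, 14 and 14 counts in the mature control libraries and 0 in all 4 immature control libraries. Against a floor of 3 counts over the 4 immature libraries, Ifnl2 was at least 12.65-fold and Ifnl3 at least 12.2-fold higher in mature control mTEC. Both are among the 8 genes that rose. They passed the count filter only through the mature libraries, so a rise was the only call open to them. Ifnb1, the type I interferon beta, held 12, 17, 10 and 9 counts in mature control libraries and 0 in immature ones, at least 7.49-fold higher against the same floor. It was not tested, being under the count filter. Of 13 Ifna genes 12 had at least 1 count in the mature libraries, but only 46 counts in all over 8 libraries and 0 in immature libraries. Ifng held 22 counts in mature control libraries and 1 in immature ones. All 21 ligand genes together reached 40 to 99 counts in a mature library.

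Of the 6 receptor genes, Ifnlr1, the specific chain of the interferon lambda receptor, was at 2.98, 2.59, 2.82 and 1.48 CPM in mature and 24.5, 27.1, 17.4 and 19.3 CPM in immature control libraries, and fell by 3.13 on the log2 scale (SE 0.24). Ifnl2 and Ifnl3 were thus detected in the population with the lower Ifnlr1 level. Ifngr1, the ligand-binding chain of the interferon gamma receptor, fell (-1.85, SE 0.08), and its partner Ifngr2 was higher within 2-fold (0.40, SE 0.08). Ifnar2 (-0.98, SE 0.13) and Il10rb (-0.68, SE 0.10) were lower within 2-fold, and Ifnar1 did not pass.

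Downstream, Socs3, an inhibitor of cytokine receptors, fell (-1.08), whereas Socs1 (0.80) and Tyk2 (0.80) were higher within 2-fold. Irf5 (2.31), Irf8 (1.66) and Irf4 (1.62) rose, the opposite of Irf7. Among sensors and adaptors, Ddx58, which encodes RIG-I, fell (-2.51, SE 0.09), as did Eif2ak2 (-1.61), Adar (-1.23) and Tlr3 (-1.09), and Tlr9 (3.09, SE 0.12), Aim2 (1.83) and Ikbke (1.34) rose. Irf4, Irf5, Irf8 and Tlr9 are also expressed by B cells, dendritic cells or macrophages, whose marker sums are given above. Whether their reads came from mTEC or from such cells was not tested. Ticam1 and Trex1 are listed at 0 in all 16 libraries. All 1147 exon bases of Trex1 are shared with Atrip in the annotation. Ticam1 shares 0 of its 2992 exon bases with annotated genes, but overlap with assembled loci was not checked. How reads shared by loci were handled is not stated, so neither 0 says anything of the level of its gene.

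**Figure D3:**
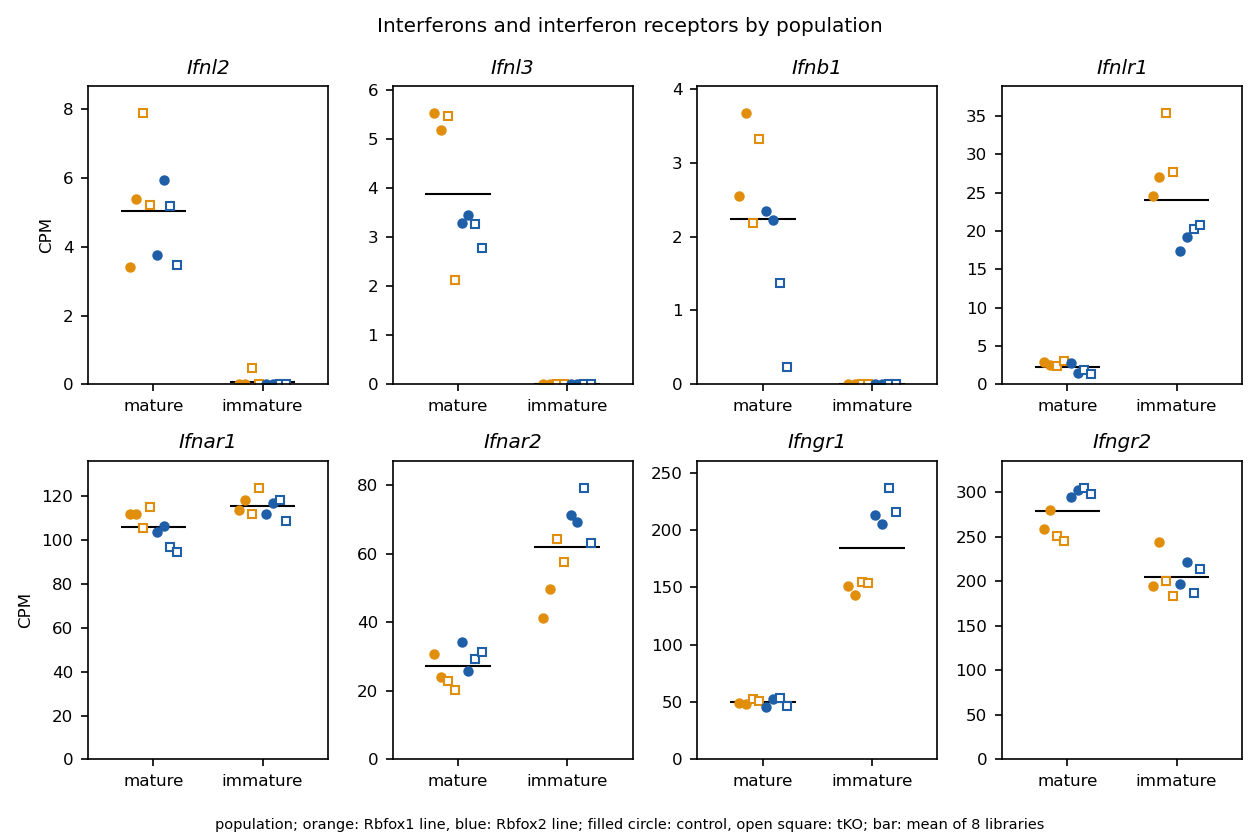
Levels (CPM, each vertical axis from 0) of 3 interferon and 5 receptor genes in mature and immature mTEC, 8 libraries each, with bars at the mean. Orange is the Rbfox1 line, blue the Rbfox2 line, filled circles are controls and open squares tKO mice. Ifnl2, Ifnl3 and Ifnb1 are at or near 0 in immature mTEC, where Ifnlr1 is at 17.4 to 35.4 CPM.

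To ask whether loss of either splicing factor changed these genes, tKO and control mice were compared within each line and population. In mature mTEC of the Rbfox2 line, 35 members passed the count filter (Oas1a and Rtp4 did not), and 0 were called by edgeR (against 0.0277% of all genes), 0 were at an adjusted p under 0.05 (against 0.0555%) and 0 were called by DESeq2. At an unadjusted p under 0.05 there were 16 by edgeR, all of them lower, 45.7% of 35 against 5.34% of the 18021 genes tested, and 9 by DESeq2. The log2 fold change was below 0 for 33 of 35 members, against 49.8% of all genes, with a median of -0.27 against 0.00 over all genes. Both tKO libraries were below both controls for 23 of 35 members, against 17.7% of all genes, and above them for 1, Trim30a, against 17.2%. The members share the same 4 mice and are not independent, so these counts describe a joint shift of small size and not separate results.

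The 3 members with the smallest p in that comparison were Iigp1, Ifit3 and Rsad2. Iigp1, an immunity-related GTPase, was at 103 and 106.5 CPM in the Rbfox2 controls and at 69.9 and 77.9 CPM in the tKO mice, without overlap. Its log2 fold change was -0.51 (SE 0.11, edgeR unadjusted p = 0.00015, adjusted p = 0.16). Ifit3 was at 36.4 and 30.4 CPM in controls and 14.75 and 21.96 CPM in tKO mice (-0.85, SE 0.19, adjusted p = 0.22). Rsad2 was at 42.8 and 43.2 CPM in controls and 35.2 and 19.65 CPM in tKO mice (-0.67, SE 0.19, adjusted p = 0.50), and without Rbfox2 tKO replicate 1 it would be called lower (-1.13, edgeR adjusted p = 0.014), with 1 tKO mouse left, which is assumed to vary like the other groups. The adjusted p ranged over the other ways of processing from 0.0099 to 0.995 for Iigp1, from 0.0089 to 0.999 for Ifit3 and from 0.014 to 0.9998 for Rsad2. Rbfox2 tKO replicate 1 had the smallest total of the mature libraries and the lowest score, and without it 11 of 35 members were at an unadjusted p under 0.05, with a median of -0.21. Without Rbfox2 control replicate 1 there were 9, with a median of -0.27.

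By role, the GTPases had 4 of 6 members at an unadjusted p under 0.05 (median -0.29), against 5.34% of all genes. The sensors had 2 of 3 (-0.23), the Ifit genes 2 of 3 (-0.38) and the Oas family 2 of 4 tested (-0.29). These small sets are parts of the joint shift described above, and differences between roles were not tested. The remaining members at an unadjusted p under 0.05 by edgeR lay in the other roles. Ifi27, Ifi35 and Xaf1 were at -0.03 to -0.01 (with Ifi44 at -0.82). Usp18 (-0.04), Irf1 (-0.03), Stat2 (0.00) and Dhx58 (-0.01) were also near 0. Ifnb1 held 10 and 9 counts in the Rbfox2 control and 5 and 1 counts in the tKO mature libraries (-1.57, SE 0.69, edgeR adjusted p = 0.91). Ifng held 1 and 4 counts in controls and 11 and 9 in tKO mice (2.004, SE 0.71, edgeR adjusted p = 0.78). Neither passed the adjusted threshold. Fibroblast markers moved with this comparison, summing to 366.5 and 360.5 CPM in controls and 454 and 430 CPM in tKO mice with 2 of 4 markers higher without overlap, and conventional dendritic cell markers summed to 58.99 and 58.8 against 45.35 and 57.1 CPM with 2 of 5 lower without overlap. Their part in the result was not tested. The sum of 5 macrophage markers overlapped (325 to 355 against 325 to 336 CPM).

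In mature mTEC of the Rbfox1 line 0 of 35 members were called by either tool, against 0.0166% of all genes by edgeR. At an unadjusted p under 0.05 there were 2 by edgeR, 5.71% against 3.35% of all genes, and 1 by DESeq2. The median log2 fold change was -0.09, 24 of 35 values were below 0 against 49.6% of all genes, and 12 members had both tKO libraries below both controls, against 15.1%, and 2, Irf1 and Irf9, had both above, against 15.8%. Ifit2 was at 60.6 and 43.8 CPM in controls and 41.35 and 32.0 CPM in tKO mice (-0.51, SE 0.17, edgeR unadjusted p = 0.0077, adjusted p = 0.9996). Ifi47 was at 53.6 and 51.4 against 42.0 and 41.7 CPM (-0.33, SE 0.12), and Dtx3l at 108 and 84.0 against 89.25 and 73.9 CPM (-0.23, SE 0.12). Neither passed the adjusted threshold. The count of 2 became 4 without tKO replicate 2, 0 without tKO replicate 3, 1 without control replicate 2 and 5 without control replicate 3, and the median -0.05 without control replicate 2 and -0.16 without control replicate 3.

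**Figure D4:**
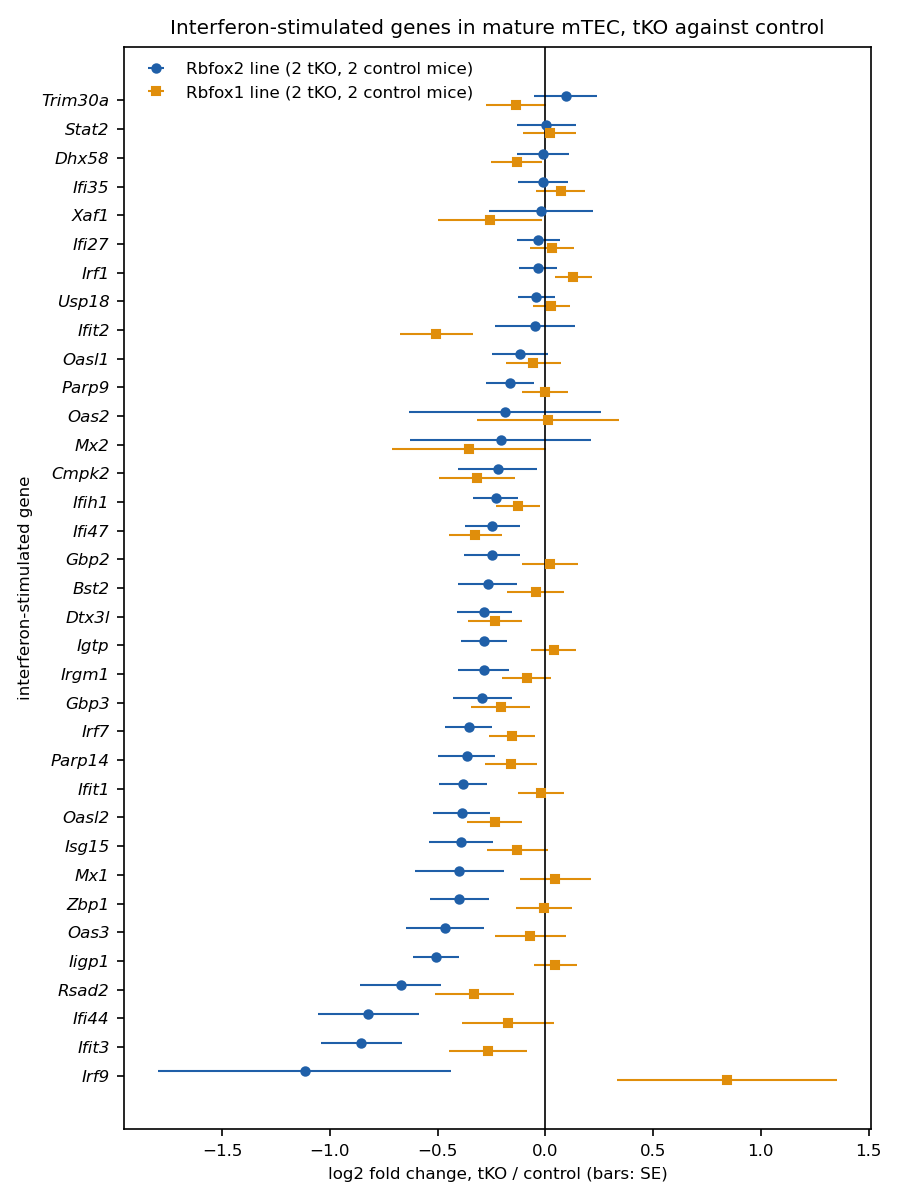
Log2 fold change of 35 interferon-stimulated genes between tKO and control mature mTEC (horizontal axis, tKO over control), ordered by the value in the Rbfox2 line, with standard errors. Blue circles are the Rbfox2 line and orange squares the Rbfox1 line, 2 tKO and 2 control mice each. Of the Rbfox2 values 33 of 35 lie below 0, with a median of -0.27, against a median of -0.09 in the Rbfox1 line.

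The difference between the 2 tKO effects was tested as such in mature mTEC. No member passed by edgeR (0 of 35 against 0.00555% of all genes, and 5 at an unadjusted p under 0.05 against 4.66%) or by DESeq2 (1 unadjusted), so the lines were not shown to differ in their response. Iigp1 had the smallest p, with a log2 difference of -0.55 (SE 0.15, edgeR adjusted p = 0.85), followed by Ifit1 (-0.36, adjusted p = 0.99) and Irf9 (-1.96, SE 0.85, on very few counts). Over both lines together, with line as a covariate, 0 members were called (against 0.0166% of all genes) and 16 were at an unadjusted p under 0.05 by edgeR (45.7% of 35, against 4.49%) and 11 by DESeq2, with a median of -0.18. Without any 1 library there were 9 to 17, with 9 without Rbfox2 tKO replicate 2 and 10 without either Rbfox2 control, and the median was -0.21 to -0.12, the latter without Rbfox2 tKO replicate 1. For 6 members, Ifi47, Ifih1, Ifit3, Irf7, Irgm1 and Rsad2, all 4 tKO libraries were below all 4 controls, 17.1% of 35 against 0.899% of all genes. The smallest p were those of Ifit3 (-0.55, SE 0.14), Rsad2 (-0.49, SE 0.13) and Oasl2 (-0.31, SE 0.09), with edgeR adjusted p from 0.54 to 0.85. The Cre allele, the Foxn1 level and the loss of the Rbfox gene came together in every tKO mouse and cannot be told apart.

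In immature mTEC, 36 members were tested and 0 were called in any tKO comparison by edgeR or DESeq2. By edgeR 0.0536% of all genes were called in the Rbfox2 line, 0.0306% in the Rbfox1 line and 0.0306% over both. In the Rbfox2 line 4 members were at an unadjusted p under 0.05 (11.1% of 36, against 6.25% of all genes, and 3 members by DESeq2), with a median of -0.13. There were 0 without Rbfox2 control replicate 1 (median -0.07), 2 without tKO replicate 1 (-0.06), 4 without tKO replicate 2 (-0.16) and 6 without control replicate 2 (-0.19). Parp9 was at 212 and 191 CPM in controls against 160 and 151 CPM in tKO mice (-0.36, SE 0.13, edgeR adjusted p = 0.67), followed by Oasl2 (-0.29) and Irgm1 (-0.32). For 14 of 36 members (38.9%) both tKO libraries were below both controls, against 17.7% of all genes, and for Ifi27 and Rsad2 both were above. Endothelial markers moved with this comparison, summing to 58.4 to 105.6 CPM in controls and 126.9 to 184 CPM in tKO mice. Macrophage sums were 19.05 to 22.3 against 28.4 to 34.3 CPM, and fibroblast sums 1171 to 1319 against 1334 to 1695 CPM. The sums of the other marker lists overlapped. Their part in the result was not tested. In the Rbfox1 line 2 members, Oas2 (0.53, SE 0.21) and Mx2 (0.49, SE 0.21), were at an unadjusted p under 0.05, both above 0, against 5.9% of all genes (0 by DESeq2), followed by Xaf1 (0.21, SE 0.13), and the median was 0.01. Without any 1 library there were 1 to 3, and the median was -0.06 to 0.08. Over both lines 3 were, Oasl1 (-0.35), Irf1 (-0.21) and Oas2 (0.36), against 7.47% of all genes (0 by DESeq2), and 0 to 6 without any 1 library. The test of the difference between lines gave 0 at an adjusted p under 0.05 (against 0.00766% of all genes) and 2 unadjusted, against 4.43% (1 by DESeq2), with the smallest p for Parp9 (-0.51, adjusted p = 0.97), Irgm1 (-0.39) and Oasl2 (-0.28).

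The 2 lines themselves differed in a few members, with tKO and control mice pooled within a line and genotype as a covariate. In mature mTEC, Mx1 and Oas2 fell in the Rbfox2 line relative to the Rbfox1 line, where 0.782% of all genes were called lower, and 0 members were called higher against 0.272%. Mx1 was at 36.8, 48.1, 44.4 and 43.1 CPM in the Rbfox1 line and 18.3, 27.2, 16.4 and 18.03 CPM in the Rbfox2 line, controls first, so that no mouse overlapped. Its log2 fold change was -1.11 (SE 0.14, edgeR adjusted p = 1.56e-05). Oas2 was at 5.53, 7.55, 7.0 and 6.16 CPM against 3.29, 3.21, 1.64 and 3.93 CPM (-1.09, SE 0.27, adjusted p = 0.0087), and within 2-fold without Rbfox2 tKO replicate 1 (-0.89). Stat2 (-0.66), Parp14 (-0.51), Iigp1 (-0.40), Oasl2 (-0.30) and Irf1 (-0.28) were lower and Ifi27 (0.26) higher on the adjusted p alone, so that 8 of 35 members passed it, 22.9%, against 13.5% of all genes.

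In immature mTEC, Mx1, Mx2 and Irf9 fell in the Rbfox2 line, where 3.08% of all genes were called lower, and 0 members were called higher against 1.92%. Mx1 was at 51.65, 64.8, 55.9 and 50.8 CPM in the Rbfox1 line and 28.85, 20.5, 23.8 and 27.05 CPM in the Rbfox2 line (-1.16, SE 0.14, edgeR adjusted p = 1.49e-05), the same direction and size as in mature mTEC. Mx2, its neighbour on chromosome 16, which is annotated as a polymorphic pseudogene, was at 21.5, 23.4, 34.45 and 28.8 CPM against 11.4, 12.0, 10.5 and 12.5 CPM (-1.19, SE 0.19). In mature mTEC, at 2.19 to 10.1 CPM, Mx2 did not pass (-0.56, adjusted p = 0.17). Irf9 fell by 1.56 on the log2 scale (SE 0.36), with 2.08 to 4.21 CPM in the Rbfox2 line. Oas2 was lower within 2-fold (-0.94, SE 0.17, adjusted p = 0.00074). Ifit1 (0.48), Gbp2 (0.43), Igtp (0.40), Ifit3 (0.37) and Isg15 (0.31) were higher on the adjusted p alone, so that 9 of 36 members passed it (25%), against 23.5% of all genes. Stat2 (-0.22) and Parp14 (-0.08) did not pass.

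**Figure D5:**
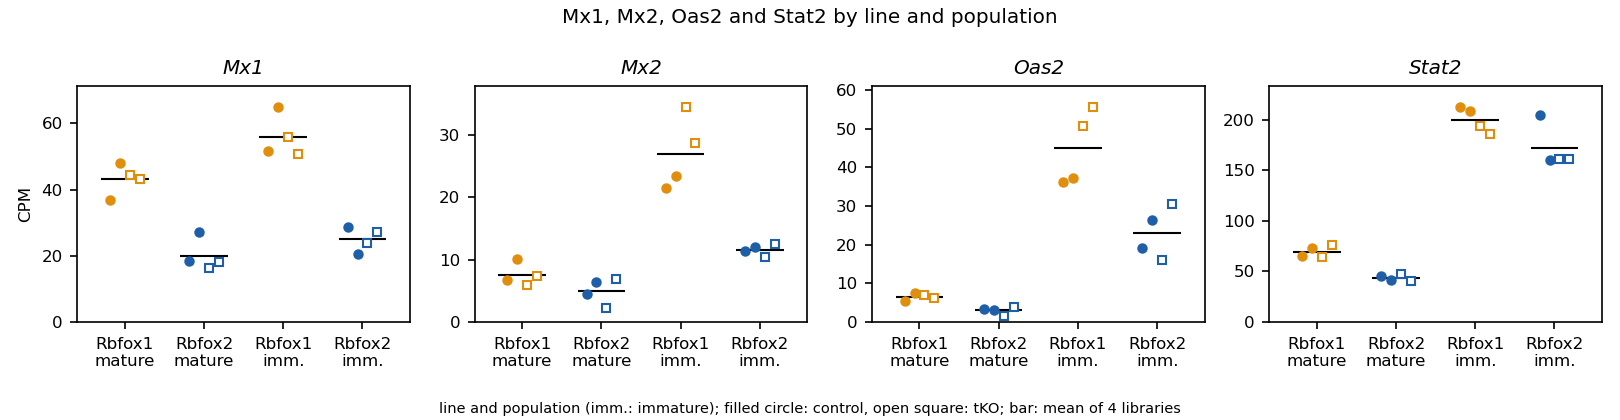
Levels of Mx1, Mx2, Oas2 and Stat2 (CPM, vertical axes from 0) in each library by line and population, with filled circles for controls, open squares for tKO mice and bars at the mean of 4 libraries. Mx1 in the Rbfox2 line (blue, 16.4 to 28.9 CPM) lies below the Rbfox1 line (orange, 36.8 to 64.8 CPM) in both populations.

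Other things moved with the line. In immature mTEC the 4 fibroblast markers summed to 237 to 463 CPM in the Rbfox1 line and 1171 to 1695 CPM in the Rbfox2 line, all 4 without overlap, and 2 of 3 endothelial markers were also higher without overlap (summed 19.4 to 51.7 against 58.4 to 184 CPM). The conventional dendritic cell sums were 35.9 to 39.0 against 43.4 to 54.8 CPM. The plasmacytoid ones were 429 to 488 against 528.5 to 595 CPM. In each of these 2 lists 1 of 5 markers was higher without overlap. Aire, the regulator of tissue-restricted antigens, was at 213 to 299 CPM in the Rbfox1 line and 19.6 to 54.1 CPM in the Rbfox2 line in immature mTEC, and at 1237 to 1585 against 640 to 910 CPM in mature mTEC. Most markers of its list that moved went the other way. Of the 10 mTEC and TEC markers, 4 were higher and 2 lower without overlap in the Rbfox2 line in immature mTEC. In mature mTEC 5 were higher and 2 lower. The list summed to 9830 to 11050 CPM in the Rbfox1 line and 11960 to 12720 CPM in the Rbfox2 line in immature mTEC. Their part in the differences was not tested. In mature mTEC the fibroblast sums were 278 to 350.5 and 361 to 454 CPM, with 1 of 4 markers without overlap, and the macrophage sums 265 to 299 and 325 to 355 CPM, with 1 of 5. Line, litter, genetic background and any difference in handling cannot be told apart with these mice. Of the other pathway genes, 7 of 37 passed the adjusted p in mature mTEC (against 13.5% of all genes), with Aim2 (-0.72), Ikbke (-0.66), Tbk1 (-0.50), Irf4 (-0.29) and Tyk2 (-0.27) lower and Tlr9 (0.24) and Ifngr2 (0.22) higher. In immature mTEC 13 of 33 did (against 23.5%), of which Irf4 (-1.39), Tlr9 (-1.21) and Aim2 (-1.03) fell.

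Differences between females and males were not detectable at this depth and number of mice. In mature mTEC 0 members passed by edgeR (against 0.061% of all genes), with 6 at an unadjusted p under 0.05 (17.1% of 35, against 6.4%) and 1 by DESeq2, the smallest being Oasl2 (0.22, adjusted p = 0.65), Oasl1 (0.22) and Isg15 (0.21). Without any 1 library there were 1 to 4, with 1 without either Rbfox1 control. In immature mTEC 0 passed (against 0.0689% of all genes), with 3 unadjusted (against 3.88%) and 0 by DESeq2, the smallest being Ifit1 (-0.20), Oas3 (0.24) and Ifih1 (-0.19), with an edgeR adjusted p of 0.9997 for each.

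The spread between mice of a group was taken for each gene as the pooled standard deviation of log2 CPM. Its median was 0.15 over the 35 members tested in mature mTEC and 0.18 over all 18021 genes, and 0.16 over 36 members and 0.19 over all 13060 genes in immature mTEC. Members were more abundant than most genes. For the 17 members and 3956 genes in the same abundance range in mature mTEC it was 0.13 and 0.12, and for the 18 members and 2475 genes of immature mTEC 0.15 and 0.12.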

How the data were processed

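RNA-seq counts of 16 libraries (8 mice, mature and immature mTEC) were analysed. According to the labels and the study's methods, the authors aligned reads with HISAT2 (2.1.0) to mm10, removed duplicates with Picard (2.10.9), down-sampled each library (10000000 immature and 14500000 mature, as the column names have it) and counted with featureCounts (1.6.0). The deposited values are raw counts for 53464 Ensembl genes and 35943 assembled loci, and the strand setting and the handling of reads shared by loci are not stated in the labels or methods. The members and lists were chosen with earlier results of these data known. Symbols, exon lengths and overlaps came from GENCODE M21 and promoters from RefSeq (GRCm38.p6).

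Counts were tested in edgeR (4.0.16, R 4.3.3) with trimmed mean of M-values scaling, a minimum count of 10 in its expression filter and Benjamini-Hochberg adjustment over all genes tested. Genes were called at an adjusted p under 0.05 and a fold over 2, interactions on adjusted p alone. Control and tKO mice were fitted separately for maturation, with group means by line. Each population of 8 libraries was fitted with 4 group means for tKO comparisons. CPM are counts per 1000000 of the scaled library size over all 16 libraries. Within a population each library is 1 mouse, so p-values measure the spread between mice. Fits of 8 libraries with 4 group means had 4 residual degrees of freedom. The fits over both lines, between lines and between sexes had other designs and so other residual degrees of freedom. In the maturation fits each mouse gave 1 mature and 1 immature library, taken as independent unless the mouse was a block. A mature and an immature library that share a number came from 1 mouse, as the study's methods describe, and their deviations from the group means correlated at 0.10 to 0.19. Alternatives were DESeq2 (1.42.0), other scalings, no or a stricter filter, a block for the mouse, sex as a covariate, a joint fit of all libraries and leaving out each replicate. On simulated counts, 99.0% of genes changed 4-fold and 72.9% changed 2-fold were recovered at an adjusted p under 0.05 for maturation in control mice (16130 genes), against 91.9% and 53.1% for the Rbfox2 tKO in mature mTEC (17624 genes).

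Named members were, for maturation, those with the largest called changes and those of highest CPM per kilobase in each role, and elsewhere those with an adjusted p under 0.05, or else the 3 smallest p. The other members are given by value where a role is described, chosen after their values were seen. Member lists were given no test of their own. 1 gene of the pathway list is in its counts but is not reported here. Floors of 3 counts cover counting error only.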

Additional observations from a re-analysis of the deposited data

Results flagged for a closer look

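Within each set of 4 control or 4 tKO libraries of a population, the score and every member with at least 10 counts were checked for a single library far from the other 3 by Dixon's ratio, 138 sets in all, of which 6 had one, where chance gives about 1 in 20. None concerned the score. In mature mTEC of control mice, Usp18 was at 241.5 CPM in Rbfox1 control replicate 3 against 268.5 to 272 CPM in the others, and Oasl2 at 441 CPM in Rbfox1 control replicate 2 against 306 to 327 CPM. In immature mTEC of control mice, Stat2 was at 160.7 CPM in Rbfox2 control replicate 2 against 205 to 212 CPM, and Ifi27 at 59.5 CPM in Rbfox1 control replicate 3 against 82.6 to 84.9 CPM. In immature mTEC of tKO mice, Bst2 was at 221 CPM in Rbfox1 tKO replicate 3 against 287 to 291 CPM, and Iigp1 at 129 CPM in Rbfox1 tKO replicate 2 against 117 to 119 CPM.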

How the results depend on the processing

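Depth and replication set the limits: with 2 mice of a genotype in a line, 2-fold changes were often missed on simulated counts, and Irf9, Rtp4 and Oas1a rest on few counts. In control mice 0 members rose in maturation, against 1 (Oasl1) with DESeq2, with DESeq2 size factors, with library totals, with no filter and for members of at least 10 counts in each library, 0 to 1 without a replicate and 4 with no fold threshold. Igtp was at -0.032 to 0.14 without a replicate, below 0 only without Rbfox1 control replicate 2. In tKO mice 2 were higher with no fold threshold, and 15 fell with at least 10 counts in every library, where 32 members were tested. In Rbfox2 tKO mature mTEC 1 member, Rsad2, fell without Rbfox2 tKO replicate 1 and 0 without any other replicate. A genotype left with 1 mouse was assumed to vary like the other groups. Between lines in mature mTEC, 1 was higher and 7 lower with no fold threshold, 1 fell with at least 10 counts, and 1 to 2 fell without a replicate (1 without Rbfox2 tKO replicate 1). In immature mTEC 5 were higher with no fold threshold.

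The score difference between mature and immature mTEC moved from -1.21 in control mice to -1.13 with DESeq2 size factors, -1.12 with members of at least 10 counts and -1.28 without the GTPases and Irf1, and from -1.35 in tKO mice to -1.29, -1.24 and -1.44 in the same order and to -1.42 at the lowest without 1 member. The line difference in immature mTEC moved from -0.01 to 0.10 with members of at least 10 counts.

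With a mouse block in the maturation comparison (replicate block), 21 members fell in control and 23 in tKO mice. Mice that share a number across genotypes share sex, and the methods name sex-matched littermates without giving the pairs, and their deviations correlated at 0.00 to 0.15. With the number as a block (replicate block) 2 members of the Rbfox2 line in mature mTEC were at an adjusted p under 0.05 and 0 called, and the pairing changed no other call. With no filter 4 members were under 0.05 there.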
